A study of Mus musculus with 9 samples.

Results

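Transcripts of 8 genes that package the chromatin of the mouse oocyte or store its histones were followed in growing XX, XO and XY oocytes. They are the oocyte linker histone H1foo, the replacement linker histone H1f0, the H2A.Z genes H2afz and H2afv, the nucleoplasmin family members Npm1, Npm2 and Npm3, and the histone chaperone gene Nasp. The genes were taken by name, and all 8 were found among the 28052 genes of the deposited counts. XX and XY oocytes came from littermates sired by B6.Y TIR males. Their Y chromosome from Tirano can fail to drive testis development on the C57BL/6 (B6) background, so that XY carriers can develop ovaries. XO oocytes came from other litters, sired by males with the X-linked Patchy Fur (Paf) mutation, a C3H/HeSnJ line that had been crossed repeatedly to B6, and their single X came from the B6 mother. The sex chromosome complement of XO oocytes and the sire line cannot be told apart in these comparisons. All females were 18 days post partum (dpp). Each sample was the RNA of 30 pooled oocytes, 10 of 50–55 µm and 20 of 55–60 µm in diameter, and each genotype had 3 pools, named here XX1 to XX3, XO1 to XO3 and XY1 to XY3. The number of females behind a pool is not given in the sources used here, so the p-values measure the spread between pools. In pools, fewer cells with a transcript and less transcript per cell cannot be told apart.

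Linker histones bind the DNA between nucleosomes and help to compact the chromatin fibre, and the oocyte replaces the somatic forms with H1FOO, which is retained until the embryo takes over. H2A.Z is a variant of the core histone H2A that is placed near gene starts by remodelling complexes. Nucleoplasmin, the product of Npm2, is the acidic chaperone of the egg that holds histones H2A and H2B and organises the nucleolus of the oocyte, whereas NPM1 and NPM3 are its widely expressed relatives and NASP keeps soluble histones H3 and H4. The comparison asks whether the sex chromosome complement of a growing oocyte goes along with different levels of these stores.

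H1foo and H1f0 encode alternative linker histones, and among the transcripts detected in every pool (all but Npm3) theirs had the widest and the narrowest range over the 9 pools (166-fold and 1.67-fold), so the promoters of these genes are shown side by side. The sequences are those of RefSeq (GRCm38.p6), from 250 bases before to 50 after the annotated start, on the plus strand of chr6:115944681-115944980 for H1foo (listed there as H1f8) and of chr15:79027962-79028261 for H1f0. Capitals mark each CANNTG, the E-box letters, and each CCAAT read on either strand, which appears as ATTGG when the box lies on the opposite strand.
H1foo: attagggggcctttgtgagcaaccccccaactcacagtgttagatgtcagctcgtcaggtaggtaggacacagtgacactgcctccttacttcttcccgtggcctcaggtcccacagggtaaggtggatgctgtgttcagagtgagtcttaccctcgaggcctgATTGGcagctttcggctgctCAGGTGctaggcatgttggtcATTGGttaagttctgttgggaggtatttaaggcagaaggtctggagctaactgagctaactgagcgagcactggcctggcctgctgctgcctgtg
H1f0: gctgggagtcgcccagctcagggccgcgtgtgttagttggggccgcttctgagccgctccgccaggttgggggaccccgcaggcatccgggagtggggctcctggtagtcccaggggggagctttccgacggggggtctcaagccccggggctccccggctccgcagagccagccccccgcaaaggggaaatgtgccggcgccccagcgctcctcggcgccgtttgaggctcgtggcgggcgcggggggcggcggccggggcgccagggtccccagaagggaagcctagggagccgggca
The H1foo promoter held 1 CANNTG, at position -66 from the start, between 2 CCAAT boxes of the opposite strand at -86 and -45. The H1f0 promoter held neither set of letters. G and C made up 54.7% of the H1foo and 75.0% of the H1f0 window, against a median of 52.7% over 32851 promoters of the same length. CANNTG was found in 72.3% and CCAAT in 37.4% of all these promoters, so that a match is common and only describes the letters. The TATAAA box, found in 13.6% of all promoters, was in neither window. The homeobox letters TAATTG, found in 8.0% of all promoters, were not there either, and neither was the related TAATTA, found in 5.29%. Both strands were searched, and the marked letters do not overlap each other.

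H1foo lies on chromosome 6 (GRCm38, 115944938-115950236) and H1f0, a gene of 1 exon, on chromosome 15 (79028212-79030498). H2afz is on chromosome 3 (137864487-137866922), H2afv on chromosome 11 (6427229-6444443), Npm1 on chromosome 11 (33152287-33163206), Npm2 on chromosome 14 (70647302-70659244), Npm3 on chromosome 19 (45747734-45749591) and Nasp on chromosome 4 (116601052-116627941), so that all 8 are autosomal. Near-identical copies, defined as transcripts with at least 95% identity over 250 bases or more, could share reads with Npm1 (5 copies in the counts with 59 UMIs in all, against 17981 for Npm1) and H2afz (1 copy with 4 UMIs, against 142). Npm2 overlaps Xpo7 on the same strand, and Npm3 overlaps the antisense gene Gm15491, which had 464 UMIs against 22 for Npm3. Reads were aligned by strand, but values of Npm3 are uncertain at this level.

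Unique molecular identifiers (UMIs) of 5′ ends were counted, 1 per captured molecule and without division by transcript length. The pools had between 2130145 and 3157338 UMIs on genes, and levels are given as the normalized CPM of the authors, in which 1 UMI was worth between 0.302 and 0.565. XO1 and XY1 stood apart by their mitochondrial share. Mitochondrial transcripts made up 13.1% of UMIs in XO1 and 10.8% in XY1 against 2.65 to 6.02% in the other 7 pools. XO1 had the lowest mean Spearman correlation with its own genotype (0.646). That of XY1 (0.878) was close to that of XY3 (0.891). The paper, from a heatmap of selected genes, described XX1, XO2 and XY1 as less like their replicates, and so named another XO pool. XO1 is here the XO column without a number. All 12 oocyte markers were detected in the pools, with summed levels of 26500 to 27900 in XX, 19100 to 53100 in XO and 20100 to 25300 in XY. Of 12 granulosa cell markers, 9 were detected and Amh, Foxl2 and Hsd17b1 were at 0 in all pools. The sums were 48.0 to 92.1, with Nr5a2 (21.9 to 51.6), Cyp19a1 (3.62 to 44.4) and Kitl (5.69 to 19.2) the highest of the list. The 7 theca and stroma markers summed to at most 4.99, and none of 4 blood markers was detected.

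Npm2 was the most abundant of the 8 transcripts, with a mean of 1483 ± 1008 normalized CPM (SD, n = 9 pools), followed by Npm1 with 822 ± 640, H1foo with 453 ± 837 and Nasp with 173 ± 58.4. H1f0 (13.3 ± 2.76) and H2afz (6.65 ± 3.58) were lower, and H2afv (1.25 ± 0.936) and Npm3 (0.982 ± 0.587) were close to the level of a few UMIs. Ranked among all genes detected in a pool, Npm2 stood between percentile 93.4 in XO1 and 99.8 in XY3, and H1foo between percentile 71.1 in XO1 and 99.6 in XO3. Within single pools, Npm2 exceeded Npm1 in 8 of 9, the exception being XO1, and Npm1 exceeded H1foo in 8 of 9, the exception being XO3. H1foo and Nasp could not be ordered, as H1foo was higher in 4 of 9 pools. Nasp over H1f0, H1f0 over H2afz and H2afz over H2afv held in 9 of 9 pools, whereas H2afv exceeded Npm3 in 4 and equalled it in 3.

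**Figure D1:**
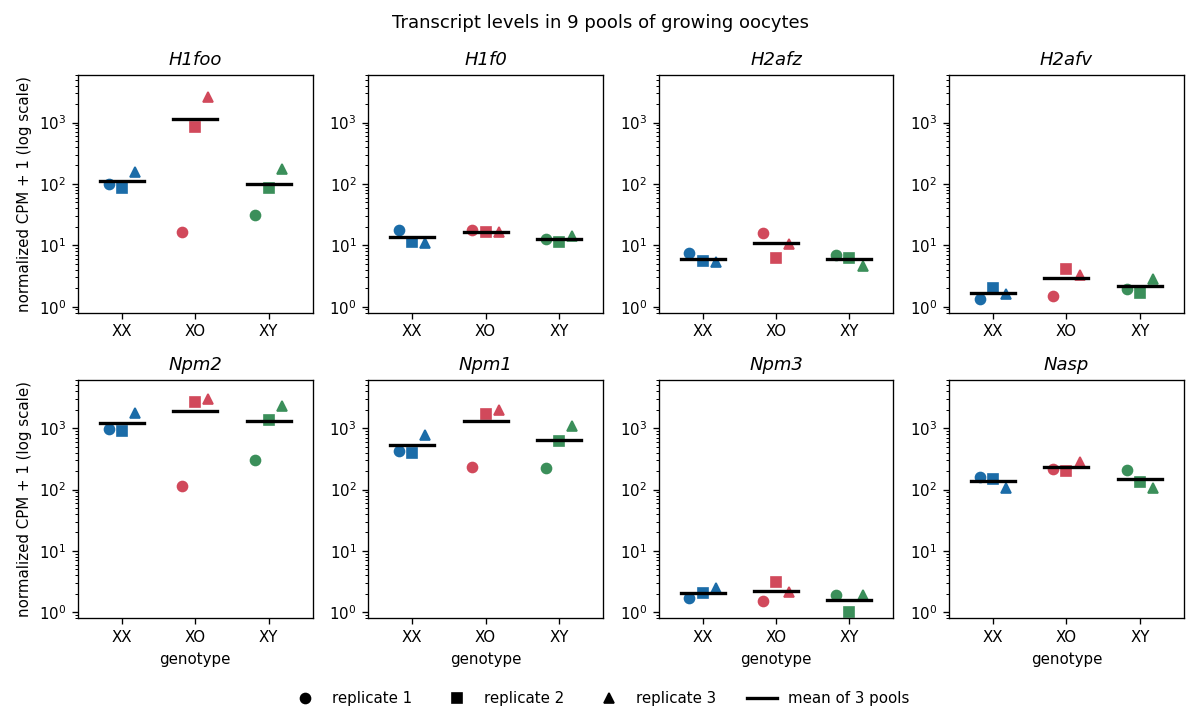
Levels of the 8 transcripts in each pool, as normalized CPM with 1 added on a log axis, by genotype. Points are pools (circle, square and triangle for replicates 1, 2 and 3) and bars the mean of 3 pools. H1foo spans 15.5 to 2576 within XO, whereas Nasp is above 198 in each XO pool and H1f0 stays between 10.1 and 16.7 in all pools.

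H1foo was the transcript with the widest range. XX pools had 96.9, 85.4 and 155 normalized CPM (272, 244 and 509 UMIs), XO pools 15.5, 856 and 2576 (30, 1656 and 4563 UMIs) and XY pools 30.2, 86.3 and 175 (65, 265 and 581 UMIs), each in the order of replicates 1 to 3. XO2 and XO3 were thus above every XX and XY pool, and XO1 was below all of them, so that the groups overlap. The highest XO pool was 166-fold above the lowest, against 1.82-fold in XX and 5.81-fold in XY. By edgeR's quasi-likelihood test, in which a difference is called at an unadjusted p under 0.05 and the Benjamini-Hochberg adjusted p over all tested genes is printed, both differences of H1foo from XO were called. H1foo was 10.2-fold lower in XX than in XO (log2 fold change -3.35 ± 1.29 SE, adjusted p = 0.236) and 11.8-fold lower in XY than in XO (-3.56 ± 1.30, adjusted p = 0.485). XX and XY did not differ beyond the spread (0.21 ± 1.18, adjusted p = 1). Without XO1, the fitted difference between XX and XO was -3.93 ± 0.66 (adjusted p = 0.00345) and that between XY and XO -4.14 ± 0.67 (adjusted p = 0.00614), and without XO3 the differences were -1.95 (adjusted p = 0.590) and -2.16 (adjusted p = 0.916) and neither was called. The call against XX was also lost without any 1 of the XX pools (log2 fold change -3.66 to -3.19) and that against XY without XY1 (-3.13) or XY2 (-3.48). With 2 surrogate variables in the fit, the difference of XX from XO turned to 0.03 and was not called, and that of XY from XO was -0.83 and called. In that fit H1foo was also called higher in XX than in XY (0.86 ± 0.25, adjusted p = 0.0391). The call against XX was lost with the replicate block (-2.27), gene totals (-2.66) and spike-in totals (-2.38), and limma called neither difference (-1.60 and -2.08 at a pseudocount of 1). Both were called without a filter on low counts (edgeR's adjusted p = 6.44e-07 and 2.15e-07), where the SE fell to 0.56 at the same fold changes. DESeq2 also called both (-2.86 and -3.28, its adjusted p = 0.14 and 0.152). So did the fit without XO1 and XY1 (-3.93 and -3.71), an alternative chosen after seeing the data.

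Of the 12 transcripts of the oocyte marker list, 7 (Zp1, Zp3, Gdf9, Nobox, Ooep, Nlrp5 and Padi6) were higher in XO2 and XO3 than in every XX and XY pool, and the other 5 (Zp2, Bmp15, Figla, Ddx4 and Oosp1) were not. Zp1, which encodes a zona pellucida protein, was at 759 and 2170 normalized CPM in XO2 and XO3 against 14.0 in XO1 and 26.0 to 129 in XX and XY pools. Padi6, a protein of the cytoplasmic lattices, was at 7270 and 16500 in XO2 and XO3 and at 212 in XO1, with 535 to 2310 in the XX and XY pools. Nobox, an oocyte transcription factor, had 522 and 1140 against 56.4 in XO1. Oosp1, an oocyte-secreted protein, went the other way, with 9140 in XO1, above all other pools, against 2490 and 2500 in XO2 and XO3 and 2230 to 5570 in XX and XY. Ddx4, a germ cell RNA helicase, had 608 in XO1 against 438 and 420, within the range of the XX and XY pools (402 to 759), whereas Zp2 was between 14800 and 17100 in XX, XO2, XO3, XY2 and XY3 and lowest in XO1, with 4920. The part of these transcripts, or of the mitochondrial share, in the H1foo difference was not tested.

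H1f0, a linker histone of slowly dividing and differentiated cells, behaved differently. Its levels were 16.7, 10.5 and 10.1 normalized CPM in XX, 16.6, 15.5 and 15.2 in XO and 11.6, 10.4 and 12.98 in XY. Each XO pool was above each XY pool, but XX1 was above all of them. H1f0 was not called in any comparison, with log2 fold changes of -0.34 ± 0.30 for XX against XO (adjusted p = 0.540), 0.09 ± 0.30 for XX against XY (adjusted p = 1) and -0.43 ± 0.30 for XY against XO (adjusted p = 0.608). Within a pool, the ratio of H1foo to H1f0 UMIs ran from 0.938 in XO1 to 166 in XO3, while it was 5.74 to 15.2 in XX and 2.57 to 13.4 in XY. An exact permutation test of the log2 ratio gave p = 0.6 for XX against XO, 0.7 for XX against XY and 0.5 for XY against XO, where 3 pools against 3 cannot go below 0.1.

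The levels of Npm2 and Npm1 followed each other from pool to pool. Npm2 had 976, 916 and 1771 normalized CPM in XX, 114, 2640 and 2964 in XO and 304, 1372 and 2292 in XY. XO1 and XY1 were the lowest of the 9 pools and XO2 and XO3 the highest. Npm1, a nucleolar phosphoprotein that also carries histones, had 421, 393 and 778 in XX, 230, 1681 and 1994 in XO and 225, 609 and 1069 in XY. It showed the same ends of the range, with XY1 and XO1 lowest. In the test over 9 pools neither was called, with log2 fold changes of -0.64 ± 1.00 (Npm2, adjusted p = 0.736) and -1.30 ± 0.78 (Npm1, adjusted p = 0.378) for XX against XO, and of -0.53 ± 0.99 (adjusted p = 0.845) and -1.04 ± 0.77 (adjusted p = 0.629) for XY against XO. XX and XY differed by -0.12 ± 0.99 for Npm2 and -0.26 ± 0.77 for Npm1. Npm1 was called without XO1, in XX against XO (-1.79 ± 0.54, adjusted p = 0.0326) and in XY against XO (-1.53 ± 0.54, adjusted p = 0.0780). It was also called in both without a filter on low counts (-1.30 and -1.04) and with 2 surrogate variables (-0.66 and -0.44). With those variables Npm2 was called in XY against XO in the opposite direction, higher in XY (0.48 ± 0.18, adjusted p = 0.167). Without XO1 and XY1, an alternative chosen after seeing the data, Npm1 was called in XX against XO (-1.79 ± 0.35, adjusted p = 0.00268) and in XY against XO (-1.13 ± 0.39, adjusted p = 0.0838), and Npm2 in XX against XO (-1.20 ± 0.34, adjusted p = 0.0184).

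The ratio of Npm2 to Npm1 within a pool, which does not depend on any scaling between pools, was nearly constant in XX. It was 2.32, 2.33 and 2.28 in XX, 0.495, 1.57 and 1.49 in XO and 1.35, 2.25 and 2.14 in XY. Every XX pool was above every XO and XY pool, though XX3 (2.28) lay close to XY2 (2.25), and XO1 was the only pool with more Npm1 than Npm2. The mean log2 ratio was 1.21 ± 0.02 in XX, 0.07 ± 0.94 in XO and 0.90 ± 0.41 in XY (SD, n = 3). In exact permutation tests, XX differed from XO by 1.14 and from XY by 0.31 on the log2 scale, both with p = 0.1, the smallest that these groups allow, and XX against both other genotypes gave 0.72 with p = 0.131. After Benjamini-Hochberg adjustment over the 16 ratio tests these values were 0.699. Without XO1, 1 of the alternatives that left out 1 pool, the difference of XX from both was 0.42 (exact permutation p = 0.0357, not adjusted). Npm3, the remaining relative, had 0 to 5 UMIs per pool, and its ratio to Npm2 did not differ beyond the spread (p = 0.5 to 1 in the pairwise exact tests). XY2 had 0 UMIs of Npm3, which allows a level of up to 0.977 normalized CPM.

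**Figure D2:**
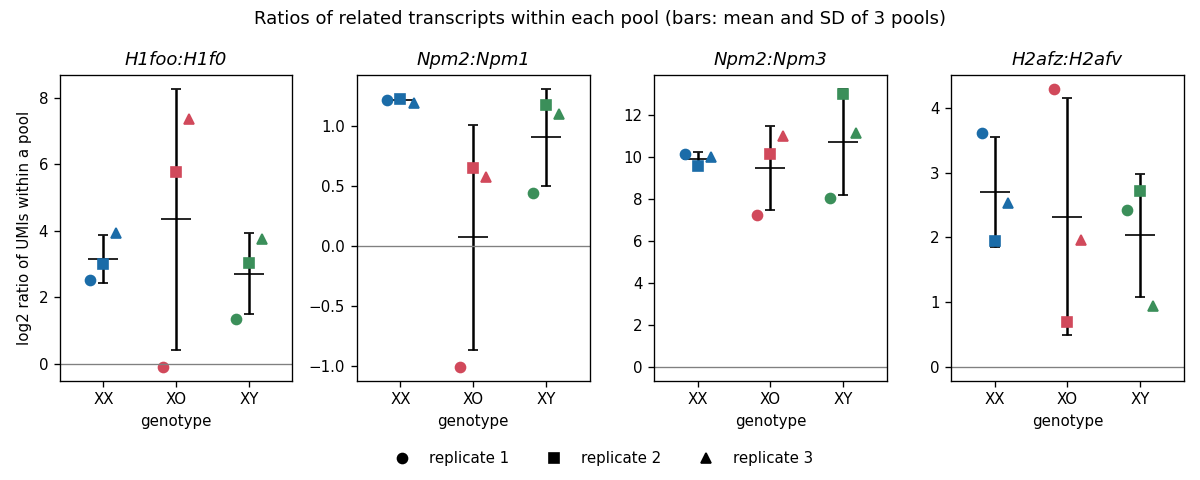
Log2 ratios of UMIs of related transcripts within each pool (0.5 added to each count), by genotype, with the mean and SD of 3 pools as bars. The Npm2:Npm1 ratio lies at 1.19 to 1.22 in the XX pools and below 1.18 in each XO and XY pool, and the H1foo:H1f0 ratio spans -0.09 to 7.37 within XO.

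The genes of H2A.Z were among the less abundant. H2afz had 6.41, 4.55 and 4.27 normalized CPM in XX, 15.0, 5.17 and 9.60 in XO and 6.04, 5.21 and 3.62 in XY, from 10 to 29 UMIs per pool. XO1, the pool with the least H1foo and Npm2, had the most H2afz, and XO2 lay within the range of XX and XY. H2afz was 2.01-fold lower in XY than in XO and called (log2 fold change -1.01 ± 0.45, adjusted p = 0.501). The difference of XX from XO was -0.96 ± 0.44 and was not called (adjusted p = 0.284), and XX against XY gave 0.04 ± 0.45 (adjusted p = 1). The call in XY against XO was lost without any 1 of the pools other than XO2, with log2 fold changes of -1.16 to -0.58, the latter without XO1. Of the other alternatives, the replicate block alone kept it (-0.94), and it was lost with the other scalings, without a filter, with 2 surrogate variables, without XO1 and XY1, with DESeq2 and with limma (-1.01 to -0.58). H2afv had 1 to 6 UMIs per pool, and the 6 UMIs of the XX pools correspond to 0.792 per 1000000 UMIs (95% exact Poisson interval 0.291 to 1.72, counting error only), so that differences in H2afv were not detectable at this depth.

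Nasp was the member whose XO pools all lay above the XX pools. It had 157, 150 and 106 normalized CPM in XX, 218, 199 and 283 in XO and 204, 133 and 106 in XY. XY1 reached into the XO range, while XX and XO did not overlap. Nasp was 1.70-fold lower in XX than in XO and called (log2 fold change -0.76 ± 0.34, adjusted p = 0.275), and the difference of XY from XO was -0.66 ± 0.34 and was not called (adjusted p = 0.524). XX and XY differed by -0.10 ± 0.34 (adjusted p = 1). The raw UMIs overlapped, with 348 to 440 in XX and 384 to 502 in XO. With TMM factors over genes in place of the spike-ins, the difference of XX from XO was -0.31 (adjusted p = 0.742) and not called. It was also not called with gene totals (-0.19), DESeq2 (-0.43), 2 surrogate variables (-0.12) or no filter (-0.76), and it turned to 0.01 with spike-in totals. The call was further lost without any 1 of XX1, XX2, XX3, XO2, XO3, XY2 and XY3 (log2 fold change -0.87 to -0.60).

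In all, 6 of the 8 genes had enough UMIs to be tested among 10993 genes, H2afv and Npm3 being the exceptions. For XX against XO, 2 of these 6 were called at an unadjusted p of 0.05, H1foo and Nasp, both higher in XO. The background was 18.1% of all tested genes called in either direction and 16.7% called higher in XO. For XX against XY none of the 6 was called by edgeR, DESeq2 or limma (edgeR's adjusted p = 1 for each), against 5.80% of all tested genes. With 2 surrogate variables in the fit H1foo was called there, higher in XX (log2 fold change 0.86 ± 0.25, edgeR's adjusted p = 0.0391). In that fit 20.4% of all tested genes were called. Without these variables, 2 were called for XY against XO, H1foo and H2afz, both higher in XO. The background was 9.93% in either direction and 8.24% higher in XO. These comparisons share their pools. Levels did not overlap between genotypes for Nasp in XX against XO (16.4% of all tested genes), for no tested member in XX against XY (15.8%) and for H1f0 in XY against XO (10.2%). In the first fit, with all pools, the filter and no added variables, no call among the 6 passed Benjamini-Hochberg adjustment over all genes. That adjustment left 0.00% of the tested genes in XX against XO, 0.0819% in XX against XY and 0.0364% in XY against XO. Without XO1 and XY1, the members called were H1foo, Npm1, Npm2 and Nasp in XX against XO, where 41.7% of all tested genes were called, and H1foo, Npm1 and Nasp in XY against XO, where 27.8% were. With the replicate number as a block, H1foo and H2afz were again the members called in XY against XO, and the background was 16.6%.

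With the scaling by TMM factors of the spike-ins, most genes called in XX against XO were higher in XO. This depended on the scaling and on whether surrogate variables were fitted. Of the 1986 genes called in XX against XO, 1832 were higher in XO and 154 in XX, and the median log2 fold change of all tested genes was -0.46, while TMM factors over genes gave 662 and 649 with a median of -0.03. Gene totals gave 421 higher in XO and 986 higher in XX with a median of 0.105, and spike-in totals, an alternative chosen after seeing the data, gave 53 and 290 with a median of 0.42. The median was -0.19 for XX against XY and -0.30 for XY against XO. Relative to the median, H1foo differed by -2.89, Npm1 by -0.84, H2afz by -0.51, Nasp by -0.31, Npm2 by -0.19 and H1f0 by 0.11 in XX against XO. With TMM over genes, 11.9% of all tested genes were called in XX against XO and 9.07% in XY against XO. H1foo was called in both (-2.75 ± 1.22, adjusted p = 0.417, and -3.13 ± 1.24, adjusted p = 0.530), the calls of Nasp and H2afz were lost, and H1f0 turned to 0.07 in XX against XO. For XY against XO, that scaling gave 404 genes called higher in XO and 593 higher in XY, against 906 and 186 with the TMM factors of the spike-ins, and for XX against XY 304 higher in XY and 284 higher in XX, against 483 and 155. Gene totals gave 214 and 1001 for XY against XO and 333 and 277 for XX against XY, and spike-in totals gave 73 and 63 and 40 and 244, in the same order. With 2 surrogate variables and the spike-in TMM factors, 796 genes were called higher in XO and 776 higher in XX. For XY against XO, that fit gave 932 higher in XO and 1074 higher in XY. The paper's limma fit had surrogate variables as covariates. It reported far more autosomal genes higher in XY than in XO than the reverse, and many higher in XX than in XO. Such an excess in XY over XO did not appear here with the spike-in TMM factors. Over 10993 genes of all chromosomes, 186 were higher in XY and 906 in XO, and 1074 and 932 with 2 surrogate variables. The reason for this difference from the paper was not tested.

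**Figure D3:**
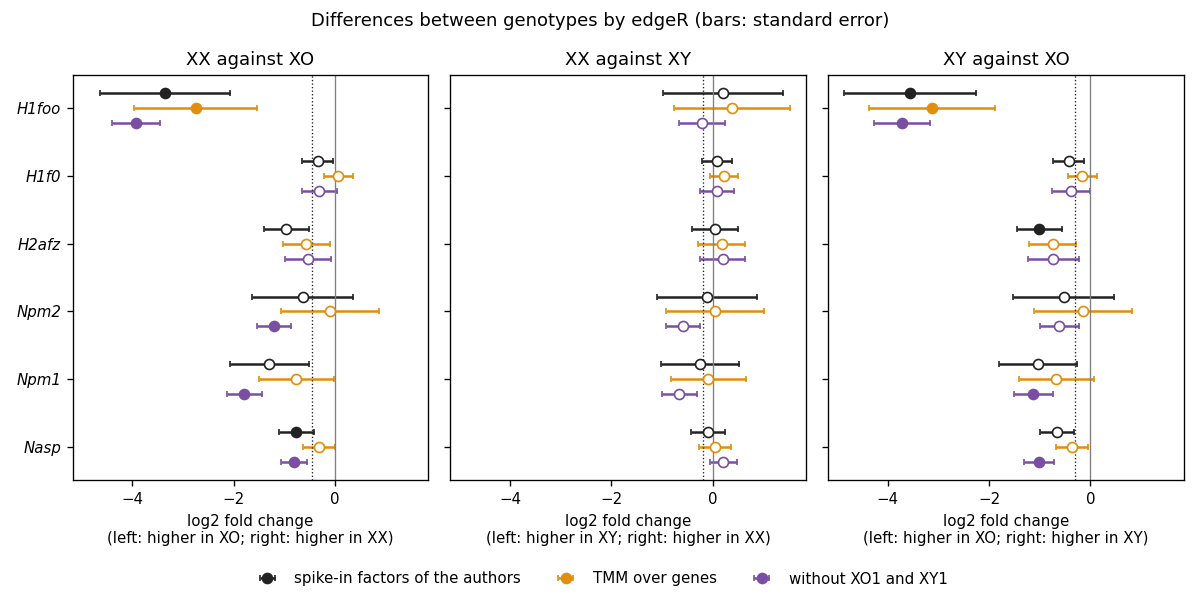
Log2 fold changes of the 6 tested members (± SE, edgeR) in the 3 comparisons, under the spike-in factors of the authors (black), TMM over genes (orange) and the spike-in factors without XO1 and XY1 (purple). Filled points have an unadjusted p under 0.05, the dotted line is the median of all tested genes under the spike-in factors, and H1foo lies at -3.35, -2.75 and -3.93 for XX against XO.

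The authors also deposited log2 values from which batch effects were regressed out. In these, the order of the genotype means changed for H1foo and Npm1. For Npm2 it was XX, XY and XO from high to low in both matrices, on the log2 scale with 0.5 added to the normalized CPM. H1foo had 7.76, 7.88 and 7.24 in XX, 6.58, 6.84 and 6.82 in XO and 7.01, 7.39 and 6.72 in XY, so that each XO pool was below each XX pool. Npm2 had 10.8, 11.0 and 10.8 in XX against 8.68, 9.15 and 8.05 in XO, and Npm1 9.39, 9.47 and 9.74 against 9.03, 9.13 and 8.43. XX exceeded XO by 0.88 for H1foo, 2.26 for Npm2 and 0.67 for Npm1 on this log2 scale, whereas the normalized CPM (log2, 0.5 added) gave -1.59, 0.28 and -0.86. For Nasp and H2afz, the direction in XX against XO was the same in both matrices, with -0.28 and -0.56 after regression against -0.76 and -0.81 before. It turned for H1f0, from -0.368 before to 0.145 after. It also turned for the low-count H2afv (-0.926 to 0.0537) and Npm3 (-0.0543 to 0.744). No test was run on the regressed values.

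**Figure D4:**
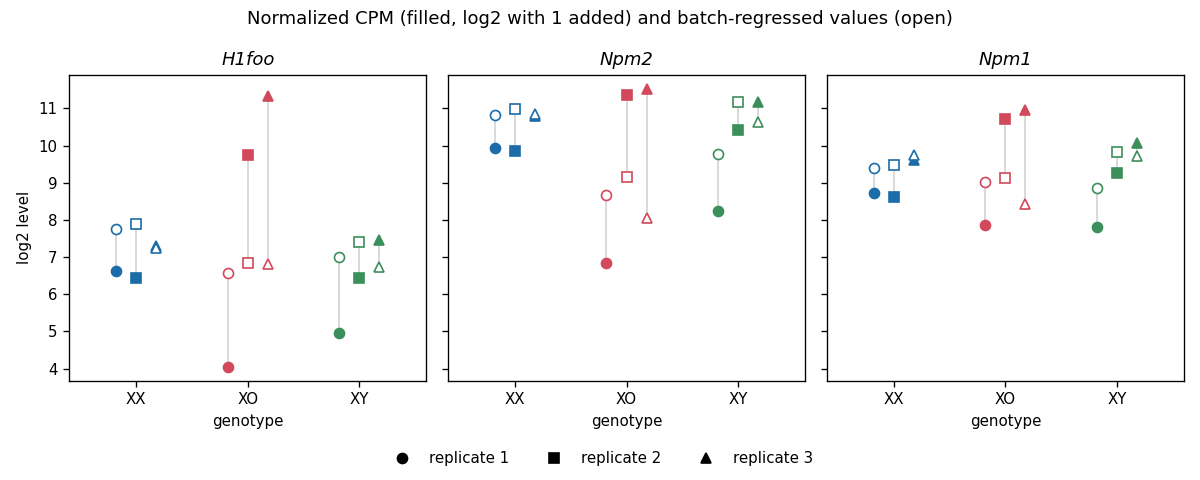
Log2 levels of H1foo, Npm2 and Npm1 in each pool before (filled, normalized CPM with 1 added) and after (open) the regression of batch effects by the authors. The range of H1foo in XO shrinks from 4.05–11.3 to 6.58–6.84, and the XO pools come to lie below the XX pools.

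Across the 9 pools, the levels of H1foo, Npm1 and Npm2 followed each other. Pearson's r of log2 normalized CPM (1 added) was 0.948 for H1foo with Npm1 (Spearman's rho 0.967), 0.857 for H1foo with Npm2 (0.983) and 0.902 for Npm1 with Npm2 (0.983). It was 0.992 for the latter after removal of the genotype means. H2afz went with Nasp (r = 0.760) and against Npm2 (r = -0.599). These correlations describe 9 pools that share a scaling, and XO1, XO2 and XO3 hold most of the range. Likeness was Pearson's r on the same log2 scale, taken over the 7275 other genes that averaged 10 normalized CPM or more. Those most like H1foo were Akr1b3 (r = 0.996), Mapk3 (0.996) and Dhrs1 (0.995), those most like Npm2 were Eef1a1, Ninj2 and Chmp5 (0.997 each), and those most like Npm1 were Galm, Gm42553 and Tmem50a (0.998 each). Nasp was most like Serpinc1 (0.966), Pard3 (0.955) and Gm20604 (0.951), and H1f0 most like Jmjd1c (0.941), Ccpg1 (0.924) and Med19 (0.910).

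The partners of these histones and chaperones were described from 6 lists of 68 genes, of which 43 were tested. In XX against XO, 7 of the 43 were called (16.3%), all higher in XO, against 18.1% of all tested genes called and 16.7% called higher in XO. In XX against XY 2 were called (4.65%), 1 in each direction, against 5.80% of all genes, and in XY against XO 1 was called (2.33%), higher in XO, against 9.93%. These shares are near or below the background. The counts moved with single pools, and the background moved with them. Without XO1, 21 of 46 tested list genes were called in XX against XO (45.7%, against 36.9% of all genes) and 17 of 46 in XY against XO (37.0%, against 32.1%). Without XO3, the counts were 3 of 47 (6.38%, against 9.31%) and 0 of 47 (against 3.74%). For XX against XO the count was 4 without XX1 or XX2, for XX against XY it was 1 without any 1 of the XX pools or XY2 and 0 without XY3, and for XY against XO it was 0 without XY2 and 4 without XY3. With TMM over genes, 2 were called in XX against XO (against 11.9% of all genes), Ncl higher in XO and Rbbp7 higher in XX. The lists were chosen with results of these pools known and are no independent evidence of a direction.

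Of the 17 genes that place or remove H2A.Z, 12 were tested and 3 were called in XX against XO (25.0%, against 18.1% of all tested genes), all higher in XO. Ruvbl1, an ATPase of the remodelling complexes, had 1.55 to 46.9 normalized CPM in XO and 2.45 to 5.18 in XX (log2 fold change -2.79 ± 1.07, adjusted p = 0.234). Epc1 (-0.93 ± 0.31, adjusted p = 0.207) and Brd8 (-1.07 ± 0.36, adjusted p = 0.207), subunits of the NuA4/TIP60 complex, had XO ranges of 40.8 to 64.2 and 32.1 to 79.0, which did not overlap the XX ranges of 18.0 to 31.3 and 24.9 to 26.2. Yeats4, which reads acetylated histones in the same complexes, was called in XX against XY (-0.97 ± 0.36, adjusted p = 0.718), with 2.74 to 5.34 in XX and 7.49 to 9.36 in XY. It was the only call of the list there, 1 of 12 (8.33%, against 5.80% of all tested genes). The most abundant genes of the list, Actl6a (-0.07 ± 0.40) and Ep400 (-0.11 ± 0.24), had nearly equal means in XX and XO, at 85.7 and 90.2 for Actl6a. The list median was -0.71 in XX against XO, beside -0.46 for all genes, -0.41 beside -0.19 in XX against XY, and -0.03 beside -0.30 in XY against XO.

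Among the chaperones of H3 and H4, the class to which NASP belongs, 12 of 15 were tested. Of these, 1 was called in XX against XO (8.33%, against 18.1% of all tested genes). In XX against XY 1 was called (8.33%, against 5.80%), and in XY against XO none was (against 9.93%). Cdan1, a partner of ASF1, was called in XX against XO (-1.21 ± 0.50, adjusted p = 0.258), from 34.7 to 57.9 in XX and 44.0 to 167 in XO. Rbbp7, an X-linked histone-binding subunit of several complexes, was called in XX against XY (0.98 ± 0.39, adjusted p = 0.765), with 190 to 245 in XX and 93.8 to 146 in XY, and was at 101 to 240 in XO. Hat1, the acetyltransferase of new H4 and the most abundant of the list, had 199 to 266 in XX, 249 to 451 in XO and 219 to 367 in XY (-0.48 ± 0.35 for XX against XO). The list median was -0.55 in XX against XO, -0.16 in XX against XY and -0.34 in XY against XO.

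Among the chaperones of H2A and H2B, the class of nucleoplasmin, 3 of 9 tested were called in XX against XO (33.3%, against 18.1% of all tested genes), all higher in XO. Ncl, the nucleolar protein nucleolin, was higher in XO than in XX (-1.14 ± 0.36, adjusted p = 0.203) and than in XY (-0.99 ± 0.36, adjusted p = 0.485), and its XO pools, at 61.0 to 97.7, were above those of XX (26.2 to 44.9) and XY (24.4 to 45.9). It was the only call of the list in XY against XO, 1 of 9 (11.1%, against 9.93% of all tested genes). Nap1l4 (-0.89 ± 0.29, adjusted p = 0.203) and Anp32a (-1.05 ± 0.45, adjusted p = 0.267) were called in XX against XO alone of the comparisons, although the difference between comparisons was not tested. Anp32b, the most abundant, had means of 149, 141 and 167 in XX, XO and XY. The list median was -0.65 in XX against XO, -0.17 in XX against XY and -0.33 in XY against XO. With the replicate number as a block, 5 of the 43 list genes were called in XY against XO in place of 1 (11.6%, against 16.6% of all tested genes in that fit), namely Ncl, Ruvbl1, Brd8, Supt6 and Nolc1, the last 4 named after their values were seen.

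Of 14 nucleolar genes of the compartment in which NPM1 resides, 9 were tested and none was called in any comparison over the 9 pools with the scaling of the authors and no block, by edgeR at an unadjusted p of 0.05. Nolc1, a nucleolar chaperone named after its values were seen, was called in XY against XO with the replicate block (-1.65), by DESeq2 (-1.58) and without XY3 (-2.55), and in XX against XO without XY3 (-1.82). Without XO1, 5 of 10 tested were called in XX against XO and 4 of 10 in XY against XO, Nolc1, Pes1 and Wdr12 in both. In those fits 36.9% and 32.1% of all tested genes were called. Without a filter 3 and 2 of 14 were, Nolc1 and Pes1 in both, against 14.1% and 9.75% of all tested genes. With 2 surrogate variables, Dkc1 and Wdr12 were called in XX against XY, where 20.4% of all tested genes were. Without XO1 and XY1 the counts were 6 of 10 in XX against XO, 2 in XX against XY and 3 in XY against XO. The shares of all tested genes there were 41.7%, 15.7% and 27.8%, in the same order. The X-linked Dkc1, a pseudouridine synthase, had means of 406, 389 and 318 in XX, XO and XY. Pes1, a ribosome assembly factor, was at 11.4 to 371 in XO and 31.9 to 72.5 in XX, with -2.08 ± 0.97 for XX against XO (adjusted p = 0.288). The list median was -0.47 in XX against XO, -0.23 in XX against XY and -0.40 in XY against XO. Of the other H2A variants, 4 of 7 were in the counts, and H2afy, for macroH2A, had means of 2.60, 6.11 and 2.74 and was not called (-1.20 ± 0.88 for XX against XO), while H2afy2 was not tested. H1fx was the 1 other linker histone of its list in the counts, and its mean was 0.117 in XX and 0 in XO and XY.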

How the data were processed

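RNA of 9 pools of 30 oocytes was sequenced with Smart-seq3. The authors aligned stranded paired-end reads to GRCm38 and Gencode with HISAT2 (version not given in the sources used here) and deposited counts of 5′ UMIs per gene, a signal called normalized CPM, and log2 values after regression of batch effects. The deposited normalized CPM was recomputed within a relative difference of 5.01e-15 as counts divided by gene total times the TMM factor of 79 ERCC spike-ins. A further row without UMIs and the ERCC rows were left out of library sizes. The number of columns not used was 0, and the XO column without a number was taken as XO1.

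Counts were tested with edgeR 4.0.16 (R 4.3.3, quasi-likelihood, filterByExpr, 10993 genes, all 9 pools in 1 fit, two-sided), with the spike-in scaling of the authors. A call is an unadjusted p under 0.05, as in the study, and adjusted p is after Benjamini-Hochberg over all genes tested. The script was tested on simulated data before use. DESeq2 1.42.0, limma 3.58.1, sva 3.50.0, other scalings, no filter, a replicate block and leaving out pools were alternatives. Ratios were tested by exact permutation over pools, two-sided, with 0.5 UMIs added. Intervals and limits of detection (3 UMIs) cover counting error only.

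Deviations from genotype means correlated positively between equal replicate numbers in XY and XO (0.830, 0.278 and 0.773), but not throughout for XX and XO or XX and XY. XO2 correlated more with XY3 (0.721) than with XY2, so these values do not establish that the numbers pair the pools. The labels do not say what a number marks. Members and lists were chosen with earlier results of these data known. Named list genes were the 2 most abundant of each list and up to 3 called per comparison, and the 3 most like genes were named for members with a mean of at least 10. Promoters came from RefSeq for 6 of 8 members (not Npm1 and Npm2).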

Additional observations from a re-analysis of the deposited data

How the results depend on the processing

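Across 18 log2 fold changes of the 6 tested members, 301 of 342 alternative values kept their direction and 41 turned. In XX against XO, where 2 members were called, the count was 1 with TMM over genes, with 2 surrogate variables, with DESeq2 and with limma at either pseudocount, 0 with gene totals alone and with spike-in totals, 4 without XO1 and XY1, and 0 to 3 on leaving out 1 pool, where 0 were called without any 1 of the XX pools or XO3. In XX against XY it was 1 in place of 0 with 2 surrogate variables, namely H1foo at 0.86 (edgeR's adjusted p = 0.0391). In XY against XO, in place of 2, it was 3 with 2 surrogate variables (H1foo, Npm1 and, in the opposite direction, Npm2) and 3 without XO1 and XY1. It was 1 with TMM over genes, gene totals, spike-in totals and DESeq2 and 0 with limma at either pseudocount. On leaving out 1 pool it was 0 to 2, with 0 without XO3 or XY2. The share of all tested genes called in XY against XO was 9.93% at first and 9.07% with TMM over genes. It was 11.1% with gene totals, 1.24% with spike-in totals, 10.2% with DESeq2 and 6.98 and 6.88% with limma. With 2 surrogate variables it was 18.2%, without XO1 and XY1 27.8%, and on leaving out 1 pool 3.74 to 32.1%. List genes called in XX against XO, 7 of 43 at first, were 2 with TMM over genes, 1 with gene totals and 15 of 63 without a filter. They were 11 with the replicate block, 3 with 2 surrogate variables, 22 without XO1 and XY1 and 3 to 21 on leaving out 1 pool. The share of all tested genes called there moved as well. It was 18.1% at first, 11.9% with TMM over genes, 12.8% with gene totals, 3.12% with spike-in totals and 14.1% without a filter. It was 23.0% with the block, 14.3% with 2 surrogate variables, 13.7% with DESeq2 and 12.2% with limma. Without XO1 and XY1 it was 41.7%, and on leaving out 1 pool 8.67 to 36.9%. In XX against XY, 2 at first, they were 1 without a filter, 8 with 2 surrogate variables, 7 without XO1 and XY1 and 0 to 2 on leaving out 1 pool, and in XY against XO, 1 at first, 7 without a filter, 5 with the block, 0 with 2 surrogate variables, 14 without XO1 and XY1 and 0 to 17 on leaving out 1 pool.

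The values that turned in XX against XO were, with 2 surrogate variables, H1foo at 0.0288, H1f0 at 0.0333 and Npm2 at 0.469, with TMM over genes H1f0 at 0.0669, with gene totals H1f0 at 0.21, with spike-in totals H1f0 at 0.459, Npm2 at 0.3 and Nasp at 0.00987, and with limma Npm2 at 0.273 and 0.275 (pseudocounts 1 and 0.5). In XX against XY, Npm2 turned to 0.0467 with TMM over genes, 0.026 with gene totals, 0.513 with spike-in totals, 0.0877 with DESeq2 and 0.243 with limma at either pseudocount, Nasp to 0.0481 with TMM over genes, 0.0383 with gene totals, 0.665 with spike-in totals, 0.226 with 2 surrogate variables, 0.206 without XO1 and XY1 and 0.0447 with DESeq2, Npm1 to 0.405 with spike-in totals, and H1foo to -0.218 without XO1 and XY1. In XY against XO, Npm2 turned to 0.476 with 2 surrogate variables and to 0.0305 and 0.0317 with limma. The cause of these changes was not tested.

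With the replicate block, Npm2 turned to 0.189 in XX against XO, and to 0.507 in XX against XY, where Npm1 turned to 0.0603. In XX against XO the block called Nasp and H2afz and not H1foo (-2.27). It is not established that equal numbers pair the pools there. XX2 and XO2 deviated in opposite directions (correlation -0.447), while XX1 with XO1 (0.468) and XX3 with XO3 (0.679) correlated positively. The block changed no other call of a member.

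On leaving out 1 pool, values of XX against XY ranged from -0.218 to 0.946 for H1foo, -0.183 to 0.221 for H1f0, -0.157 to 0.199 for H2afz, -0.662 to 0.347 for Npm1, -0.585 to 0.544 for Npm2 and -0.294 to 0.206 for Nasp. The mean difference in log2 ratio of H1foo to H1f0 ranged from -3.42 to 0.314 for XX against XO, -0.235 to 0.954 for XX against XY and -1.10 to 0.389 for XX against both, and that of H2afz to H2afv from -0.426 to 1.38 for XX against XO and -1.10 to 0.707 for XY against XO. That of Npm2 to Npm3 ranged from -0.695 to 1.22, -2.17 to 0.34 and -0.771 to 0.398 for XX against XO, XY and both, and that of Npm2 to Npm1 from 0.422 to 0.859 for XX against both. The pools of 10 to 29 H2afz UMIs and of at most 6 H2afv or Npm3 UMIs limit what can be seen for these genes.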
